A study of Mus musculus with 2 samples.

Results

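The fatty acid oxidation and ketogenesis genes are a set of 30 genes given by symbol, out of 43346 mouse genes in the deposited mm10 gene tables. They cover uptake and activation of fatty acids (2 genes), the carnitine shuttle (3), the mitochondrial oxidation spiral (4 dehydrogenases and 5 later enzymes), its auxiliary enzymes (3) and electron carriers (3), peroxisomal oxidation (6), ketogenic steps (2) and regulators of fuel choice (2). All 30 symbols were found. The tissue was liver, taken shortly before birth at embryonic day 18 from C57BL/6J littermates whose sexes the labels call mixed. The study holds 1 group with 2 libraries, numbered as biological replicates 1 and 2, and no treatment, genotype or time is compared. RNA over 200 nt was depleted of ribosomal RNA, selected for poly(A) and sequenced with added spike-in RNA as stranded read pairs.

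Fatty acids that enter a hepatocyte are bound by a carrier protein and joined to coenzyme A, and long chains then cross into the mitochondrion as carnitine esters. Each turn of oxidation removes an acetyl-CoA unit through a dehydrogenase, a hydratase, a further dehydrogenase and a thiolase, and peroxisomes shorten chains that are too long or too branched for mitochondria. Liver turns surplus acetyl-CoA into ketone bodies, a fuel for other organs, and the nuclear receptor PPAR-alpha switches on many genes of both compartments when milk fat or fasting supplies fatty acids.

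The libraries held 159127988 and 136904873 expected counts in mouse genes (replicates 1 and 2), and every member had a mean of more than 1000 counts. With 1 library against 1 library there is no test, and ± gives the SD of the 2 libraries (n = 2). The labels name mixed sex littermates and do not say whether each library pools both sexes. Xist, the RNA of the silenced X chromosome, had 157187 counts in replicate 1 and 41 in replicate 2. The Y-linked gene Ddx3y had 1 and 6544. Every difference between the libraries below is therefore also one between a library with and a library without Y-linked RNA, and sex, animal and dissection cannot be told apart. Hepatocyte markers were all present, with albumin (Alb) at 75317 and 75756 TPM (TPM is a level per transcript length and library size). On the count scale described below, 6 of the 10 markers were higher in replicate 2 and 4 lower (median log2 ratio 0.04, from -0.99 to 0.13). Ttr and Tat, named after their values were seen, were lower by over 1.5-fold (-0.76 and -0.99). In bulk tissue, fewer cells of a type and less RNA per cell cannot be told apart. RNA of the developing red cells was abundant as well (8 of 8 erythroid markers, summed level 106039 and 97788 TPM). Markers of neighbouring tissues were low. The summed level of 9 pancreas acinar markers was 62.4 and 6.24 TPM, of 12 heart and skeletal muscle markers 11.2 and 4.87 TPM, and of 7 gut epithelium markers 13.1 and 6.27 TPM. It was 12.1 and 8.38 TPM for 7 brown fat markers and 0.51 and 0.47 TPM for 8 kidney tubule markers. The gut gene Sis and the kidney genes Kap and Slc12a1 had 0 counts in both libraries, which allows up to 3 counts in each, and the brown fat gene Ucp1 had 5 and 1. These genes were named after their values were seen. Most of the brown fat sum came from Cox7a1 (11.7 and 8.17 TPM). The 6 adrenal cortex markers summed to 167 and 198 TPM, nearly all of it from Hsd3b1, and the adrenal regulator Nr5a1 had 7 and 2 counts.

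All 30 members reached 1 TPM in both libraries, as did 53.9% of protein-coding genes. Their median level was 105.5 TPM in replicate 1 and 97.0 TPM in replicate 2 (101.3 ± 6.0). Together they took 0.842% and 0.682% of the TPM of mouse genes (0.762 ± 0.114%), and 0.390% and 0.372% without the carrier gene Fabp1 (0.381 ± 0.013%). Levels ran over 3 orders of magnitude, from 3.19 ± 0.62 TPM for the coactivator Ppargc1a to 3692 ± 952 TPM for Fabp1. Of the 30 genes, 14 stood at 100 TPM or more in both libraries. For scale, Eci1 with a mean of 101.1 TPM stood above 93.7% of protein-coding genes with a mean of 1 TPM or more. The enzymes of the mitochondrial spiral were nearly the same in both libraries, while a small peroxisomal and carrier group differed.

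**Figure D1:**
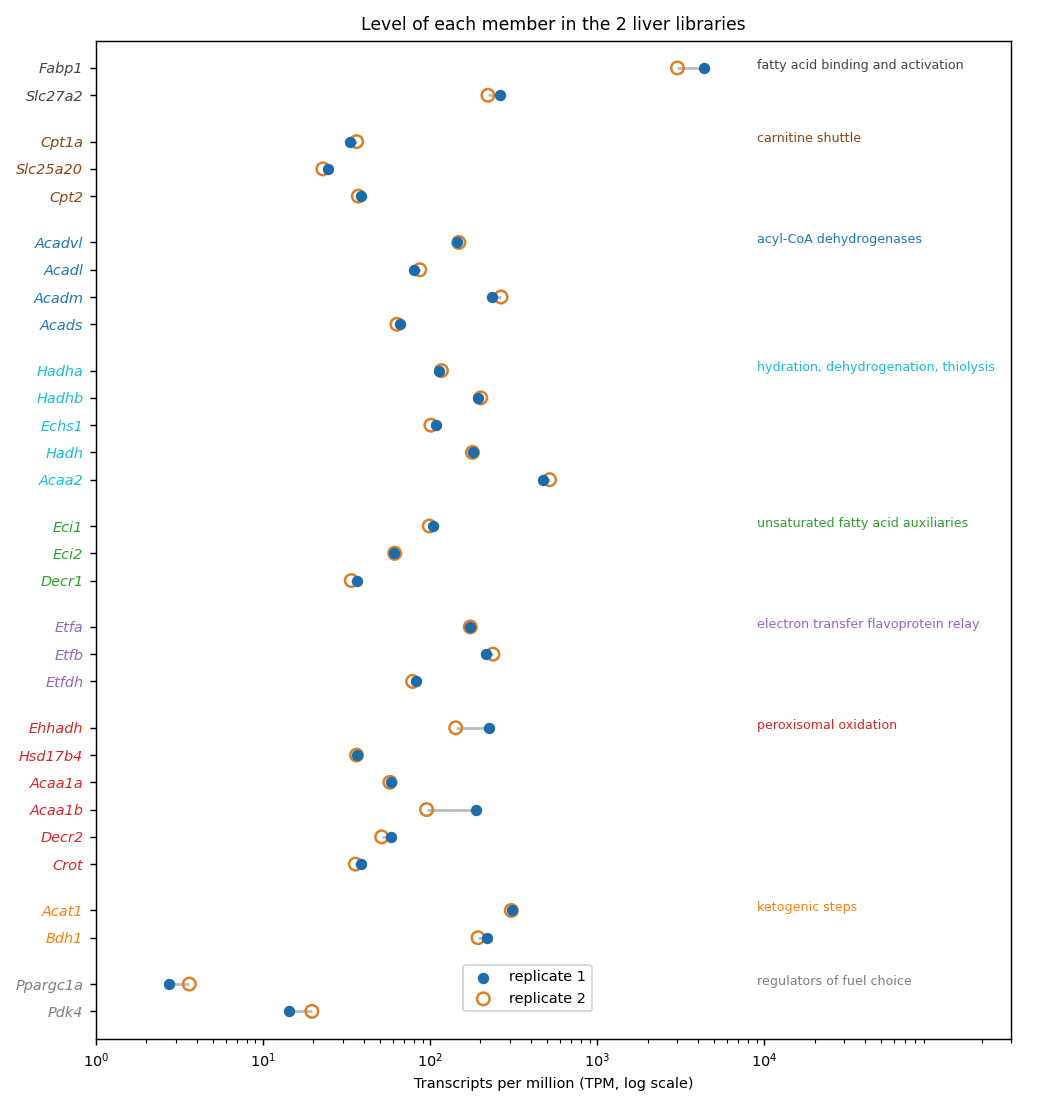
Level of each member in TPM (horizontal log axis) in replicate 1 (filled) and replicate 2 (open), ordered by step. Fabp1 stands highest at 4365 and 3019 TPM, and Ehhadh and Acaa1b show the widest gaps among the enzymes.

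Differences between the libraries are given as the log2 ratio of replicate 2 over replicate 1, on rounded expected counts scaled by TMM with 0.5 added, and a difference over 1.5-fold is used as a mark of size. On this scale 23 of 30 members were lower in replicate 2, against 50.6% of genes with a mean count of at least 10 and 47.7% of those with at least 1000. Of the members, 3 were lower by more than 1.5-fold, namely Fabp1, Ehhadh and Acaa1b (background 7.11% of genes at a mean count of 10 and 1.6% at 1000). None was higher by that much (background 3.63% and 0.585%). The lowest fold among those 3 was 1.60 (Fabp1), and the widest inside the mark was 1.27 (Pdk4). The median log2 ratio of the members was -0.14, beside 0.01 for all genes of mean count 1000 or more. On the deposited TPM scale the median gene of that class shifted by 0.12. By TPM 17 of 30 members were lower in replicate 2, against 24.97% of the genes of that class. Relative to that shift, 23 members were lower again and their median was -0.13. The ratio was formed in 7 ways: TMM, TMM without globin and mitochondrial genes, DESeq2 size factors, TPM, 5 added counts, junction reads, and relative to genes of similar length. Both forms of TMM, DESeq2 and 5 added counts gave nearly identical values (Ehhadh -0.77 in each), so their agreement adds little. The junction way takes R2 as replicate 2, which no label states. Junction reads of Xist (8758 in R1 and 1 in R2) and Ddx3y (0 and 3930) had the same order as their counts in replicates 1 and 2. Over all 7 ways, 17 members were lower in replicate 2 each time, 6 were higher each time and 6 changed direction. The matching shares of all genes were not taken. The 6 are Cpt1a, Acadvl, Hadha, Hadhb, Eci2 and Etfa. Of these, Acadvl, Hadhb, Eci2 and Etfa were above 0 by TPM alone, at 0.03, 0.05, 0.01 and 0.01. Each value is smaller than the 0.12 shift of the median gene by TPM, which the TPM way does not remove. Hsd17b4 was lower each time except by TPM, where its values were equal. All 8 erythroid markers were lower in replicate 2 (median -0.19), as were 4 of 10 hepatocyte markers (median 0.04). Their part in the members' ratios was not tested.

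**Figure D2:**
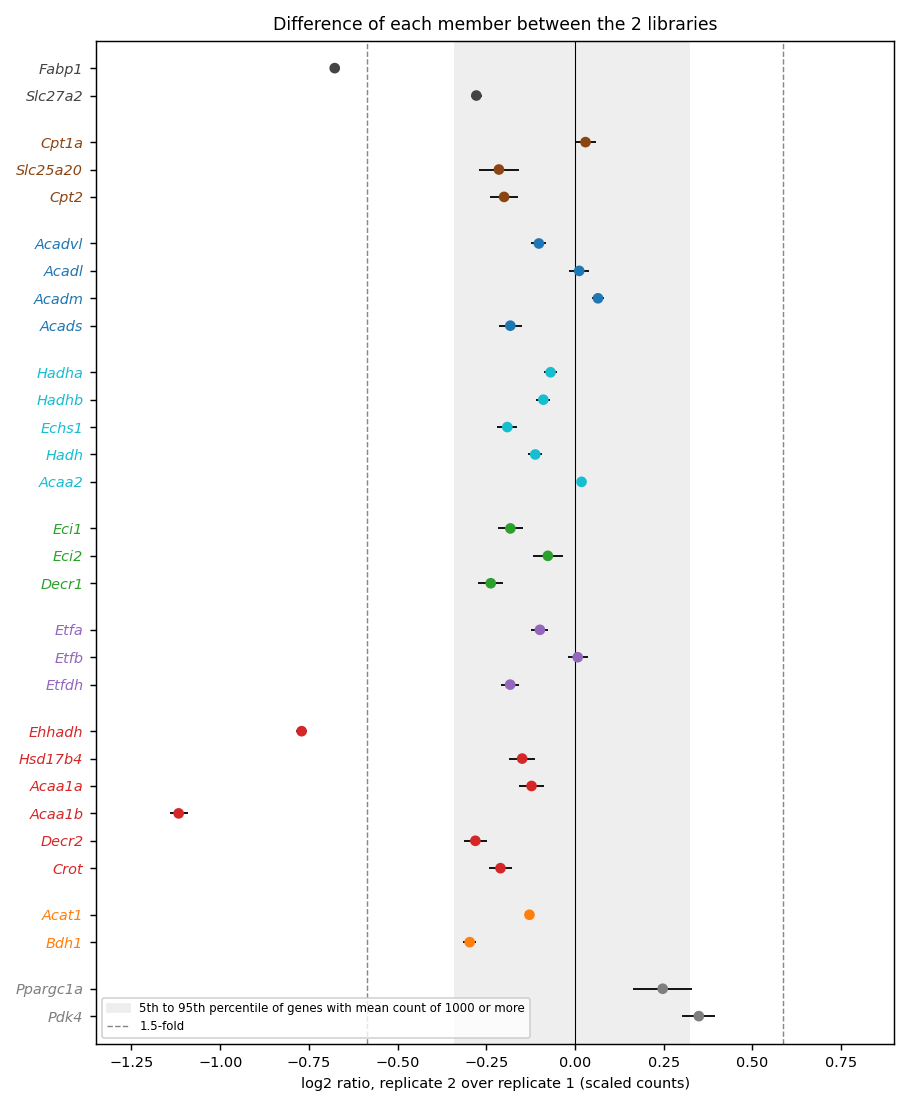
Log2 ratio of replicate 2 over replicate 1 for each member (points) with 95% counting intervals (bars, counting error only), beside 1.5-fold (dashed) and the 5th to 95th percentile of genes with a mean count of 1000 or more (grey, -0.34 to 0.32). Fabp1, Ehhadh and Acaa1b lie to the left of the dashed line, and Pdk4 alone lies right of the grey band.

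Fabp1, the liver fatty acid binding protein that carries fatty acids through the cytosol, was the most abundant member. It stood at 4365 TPM in replicate 1 and 3019 TPM in replicate 2, above 99.8% of protein-coding genes with a mean of 1 TPM or more. Its counts were 229465 and 127956, a log2 ratio of -0.68 (95% counting interval -0.69 to -0.67). On the TPM scale the same difference was -0.53, below 1.5-fold, and -0.65 relative to the shift of all genes. Fabp1 is a short gene product, and the shortest of 10 classes of genes by effective length had a median log2 ratio of -0.06. All 5 gut epithelium markers with a mean of 10 counts or more were lower in replicate 2 too, with log2 ratios from -1.77 to -0.15. Their counts ran from 15 and 12 (Muc2) to 1401 and 513 (Fabp2), and the remaining markers Cdx2 and Sis had 12 and 4 counts and 0 in both. The part of gut RNA in the Fabp1 level was not tested.

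Within its family, Fabp1 was 2.53 times as abundant as Fabp5 in replicate 1 and 1.65 times in replicate 2, on the TPM scale. Fabp5, found in many epithelial and blood cells, was at 1728 and 1825 TPM, and Fabp4, the form of fat cells, macrophages and endothelium, at 72.5 and 74.1 TPM. Neither followed Fabp1, with log2 ratios of -0.02 and -0.03. The gut form Fabp2 was at 12.0 and 5.37 TPM with a log2 ratio of -1.28. The heart form Fabp3 and the brain form Fabp7 were under 1 TPM (0.83 and 0.56, then 0.68 and 0.52 TPM). The ileal bile acid binder Fabp6 had 0 counts in both libraries.

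The stretch before the Fabp1 start is shown because Fabp1 was the one member whose promoter window held a direct repeat of the kind bound by PPAR-alpha with its partner RXR. The search took 2 copies of AGGNCA spaced by 1 base, on either strand, over windows from 250 bases before to 50 after each RefSeq start (GRCm38.p6). It matched 125 of 32851 windows (0.381%) and 1 of the 26 members that have a window. Capitals mark matches in the 250 bases before the start, on the plus strand of chr6:71199629-71199878.
Fabp1: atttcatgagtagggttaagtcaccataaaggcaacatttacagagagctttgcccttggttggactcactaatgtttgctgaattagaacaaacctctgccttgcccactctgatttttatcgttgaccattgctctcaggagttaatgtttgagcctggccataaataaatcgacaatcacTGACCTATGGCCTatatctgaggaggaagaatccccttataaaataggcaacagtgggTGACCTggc
The repeat reads on the strand opposite to the gene, from 67 to 55 bases before the start. The single half-site AGGTCA, which the repeat overlaps, occurs again from 9 to 4 bases before it. That half-site alone was in 16.3% of all windows and in those of 6 members (Fabp1, Slc27a2, Cpt1a, Acadvl, Acadm and Echs1). GENCODE places the start of Fabp1 at base 71199827, so the last bases printed lie inside its annotated transcript. A match is a string of letters, not a measured binding site.

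Slc27a2, a transporter and acyl-CoA synthetase for very long chains, was at 262 TPM in replicate 1 and 222 TPM in replicate 2. Its log2 ratio was -0.28 (counting interval -0.29 to -0.26), within the band of other genes. It was 4.00 and 5.11 times as abundant as Slc27a5, the bile acid and fatty acid synthetase of the same family (65.5 and 43.5 TPM). Slc27a2 was also spread over transcripts. Slc27a2-201 took 60.2% and 67.5% of the gene's TPM, and the shorter coding Slc27a2-203 took 32.1% and 24.9%. Among the other acyl-CoA synthetases 12 of 13 measured genes were lower in replicate 2, and 4 of them by over 1.5-fold (median -0.22). The most abundant, Acsl1, which activates long chains, was level at 275 and 285 TPM (log2 ratio -0.06). Acsl5, another long-chain form, was at 124 and 83.0 TPM (-0.68), and Acsm1, for medium chains, at 85.1 and 79.2 TPM (-0.21).

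The carnitine shuttle had the lowest median level of any enzyme step and differed little between libraries. Cpt1a, the liver carnitine palmitoyltransferase that controls entry of long chains into mitochondria, was at 33.0 and 36.2 TPM (log2 ratio 0.03). Slc25a20, the carrier that exchanges acylcarnitine for carnitine, was at 24.4 and 22.8 TPM (-0.21). Cpt2, which returns the acyl group to coenzyme A inside the mitochondrion, was at 38.4 and 37.2 TPM (-0.20). The 3 genes lay between 23.6 ± 1.1 and 37.8 ± 0.8 TPM, below every mitochondrial dehydrogenase and thiolase among the members.

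Of the Cpt1 paralogs, Cpt1a was 1.64 and 1.88 times as abundant as the muscle form Cpt1b, which was listed at 20.2 and 19.3 TPM. The counts of Cpt1b were not whole numbers, so part of its reads was shared with another feature and its level is uncertain. Cpt1b had a log2 ratio of -0.14. All 9 muscle markers with a mean of 10 counts or more were lower in replicate 2, with log2 ratios from -3.39 to -0.15, the latter for Tnnt2 (358 and 288 counts). The part of muscle RNA in the Cpt1b level was not tested. The brain form Cpt1c was at 1.39 and 1.68 TPM. Of 6 other carnitine genes measured, 4 were lower in replicate 2 and none passed 1.5-fold (median -0.09). Among them, Aldh9a1 and Bbox1 of carnitine synthesis were at 34.9 and 36.5 TPM and at 7.43 and 7.39 TPM, and the acetyltransferase Crat at 26.8 and 24.6 TPM.

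The 4 mitochondrial acyl-CoA dehydrogenases open each turn of the spiral and divide the chain lengths between them. Acadvl, for very long chains, was at 146 and 149 TPM (log2 ratio -0.10, above 0 on the TPM scale), and Acadl, for long chains, at 79.7 and 86.7 TPM (0.01). Acadm, for medium chains, was the most abundant at 234 and 266 TPM (0.06). Acads, for short chains, was at 65.9 and 63.2 TPM (-0.18). Acadm stood at 3.88 ± 0.46 times the level of Acads and 3.0 ± 0.09 times that of Acadl. The order Acadm, Acadvl, Acadl, Acads was the same in both libraries. The summed level of the 4 was 525 TPM in replicate 1 and 564.2 TPM in replicate 2.

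Among the later mitochondrial enzymes, the thiolase Acaa2 was second only to Fabp1 of all members, at 473 and 519 TPM (log2 ratio 0.02). Hadh, the dehydrogenase for medium and short chains, was at 179.4 and 179.1 TPM (-0.11). Echs1, the short-chain hydratase, was at 107.74 and 101.05 TPM (-0.19). Hadha and Hadhb, the alpha and beta subunits of the trifunctional protein of the inner membrane, were at 112 and 117 TPM (-0.07) and at 194 and 201 TPM (-0.09). The signs for Hadha and Hadhb turned on the TPM scale. The widest fold among the 5 was 1.14, for Echs1.

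The subunits of the trifunctional protein are encoded by neighbouring genes that run apart from each other on chromosome 5. GENCODE ends Hadha (minus strand, chr5:30118304-30155162) 85 bases before Hadhb begins (plus strand, chr5:30155248-30184593). The bases between the starts, chr5:30155163-30155247 on the plus strand, are printed because both genes begin at their edges.
Hadha-Hadhb gap: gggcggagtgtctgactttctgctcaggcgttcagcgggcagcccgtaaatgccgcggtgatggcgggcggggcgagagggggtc
They are rich in G and C (69.4%) with 9 CG pairs, and hold no AGGTCA on either strand. The level of Hadhb over Hadha was 1.73 in replicate 1 and 1.72 in replicate 2. That ratio is uncertain for 2 reasons in the files. Hadhb shared 16.7% of its 75-base stretches with other transcripts, mostly with the processed pseudogene Gm13910 on chromosome 2 (1158 and 493 counts), and its counts were fractional. In the separate mm9 junction list, the median annotated Hadhb junction had 76 and 59 reads, against 2451 and 2264 for Hadha. Median junction reads per TPM were 0.34 for Hadhb, and the next lowest member had 6.80 (median of members 20.6). By transcript, Hadhb-201 took 49.7% and 51.5% of the gene's TPM and the 507-nt retained-intron form Hadhb-208 took 21.7% and 23.1%. For Hadha, Hadha-205 took 62.2% and 61.7%, and the processed transcript Hadha-201 took 28.9% and 28.1%.

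**Figure D3:**
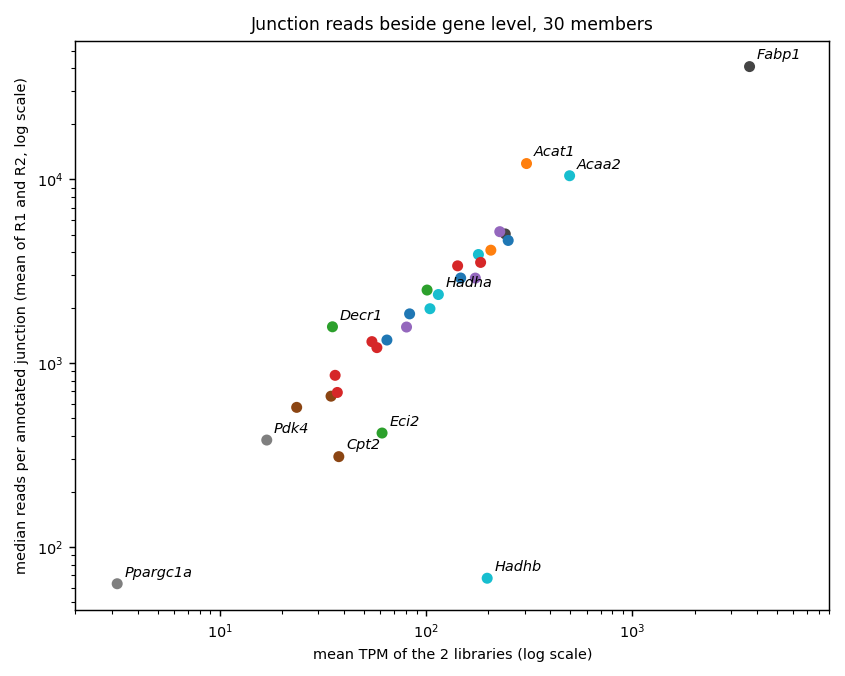
Median reads per annotated exon junction (mean of R1 and R2, vertical log axis) against mean TPM (horizontal log axis) for the 30 members, coloured by step. Hadhb, with a median of 76 and 59 reads per junction, lies near Ppargc1a (61 and 65) on the vertical axis although its TPM is far higher.

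The auxiliary enzymes reposition or remove double bonds so that unsaturated chains can pass the spiral. Eci1, the mitochondrial isomerase, was at 103 and 98.9 TPM (log2 ratio -0.18), and Eci2, an isomerase found in both peroxisomes and mitochondria, at 61.0 and 61.4 TPM (-0.08). Decr1, the mitochondrial dienoyl-CoA reductase, was at 36.6 and 33.7 TPM (-0.24). Eci2 was divided over the most transcripts, and its leading form Eci2-211 took 42.7% and 44.4%. Ech1, the dienoyl-CoA isomerase, which is no member, stood above all 3 at 434 and 437 TPM.

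The electron transfer flavoprotein takes electrons from the dehydrogenases and hands them to the respiratory chain through its own oxidoreductase. Its alpha subunit Etfa was at 172 and 174 TPM (log2 ratio -0.10) and its beta subunit Etfb at 217 and 238 TPM (0.01). The oxidoreductase Etfdh was at 82.2 and 78.5 TPM (-0.18). The subunits, which pair in the protein, were at an Etfb to Etfa ratio of 1.31 ± 0.08. Etfb shared 39.6% of its 75-base stretches with the annotated gene Gm45233, so its level is uncertain. The counts of Etfb were nevertheless whole numbers (21913 and 19642), so they show no division of reads with another feature. The sign for Etfa turned on the TPM scale.

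Over the 20 mitochondrial and ketogenic members, the fold between libraries ran from 1.01 to 1.23. None passed 1.5-fold, and their summed level was 2887 and 2960 TPM, or 0.299% and 0.304% of mouse TPM. Among 17 other mitochondrial oxidation genes, 12 were lower in replicate 2 and 1 passed 1.5-fold (median -0.15). That 1 was Eci3, with 20 and 7 counts, named after its values were seen. Beside Ech1, the most abundant were Hsd17b10 of branched-chain breakdown (81.0 and 81.8 TPM), the dehydrogenase Acad11 (72.7 and 71.3 TPM) and the thioesterase Acot13 (47.2 and 42.4 TPM).

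The peroxisomal members all had log2 ratios below 0 on the count scale, and those of Ehhadh and Acaa1b stood apart. Ehhadh, the peroxisomal bifunctional enzyme and a known target of PPAR-alpha, was at 225 TPM in replicate 1 and 142 TPM in replicate 2. Its counts were 98135 and 51297, a log2 ratio of -0.77 (counting interval -0.79 to -0.76). Acaa1b, a peroxisomal thiolase, was at 189 and 95.2 TPM, with 41690 and 17138 counts and a log2 ratio of -1.12 (-1.14 to -1.09). It was the one member past 2-fold. Both lay past 1.5-fold in every one of the 7 ways of forming the ratio, several of which were nearly identical. By TPM, junction reads and genes of similar length, Ehhadh was at -0.66, -0.76 and -0.80. Acaa1b was at -0.99, -0.97 and -1.07 in the same order. Pancreas acinar and muscle markers were also lower in replicate 2 (sums above), and their part in these differences was not tested. Kidney tubule, where Ehhadh is also high, had markers that summed to 0.51 and 0.47 TPM. All 3 of them with a mean of 10 counts or more were lower in replicate 2 too (log2 ratios from -1.55 to -0.08). The part of kidney RNA in the Ehhadh level was not tested either.

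The other peroxisomal members were nearer to equality. Acaa1a, the sister thiolase, was at 58.1 and 57.4 TPM (-0.12). Hsd17b4, the other bifunctional enzyme, which serves branched chains and bile acid precursors, was at 36.2 TPM in both (-0.15, and 0.00 on the TPM scale). Decr2, the peroxisomal dienoyl-CoA reductase, was at 58.0 and 51.2 TPM (-0.28). Crot, which makes carnitine esters of shortened chains for export to mitochondria, was at 38.6 and 35.6 TPM (-0.21). Ehhadh was 6.21 times as abundant as Hsd17b4 in replicate 1 and 3.92 times in replicate 2.

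Acaa1a and Acaa1b lie 183 kb apart on chromosome 9 with 3 protein-coding genes between them. They shared 460 of their 75-base stretches, 24.4% of those of Acaa1b and 9.5% of those of Acaa1a, and their counts were fractional. The thiolase levels are therefore uncertain where reads could not be assigned. Acaa1b stood at 3.26 times Acaa1a in replicate 1 and 1.66 times in replicate 2. The stretches before their RefSeq starts are printed with that of Ehhadh, because the sister thiolases differed between libraries by such different amounts. They are chr16:21787835-21788084 (minus strand), chr9:119157094-119157343 (minus) and chr9:119341044-119341293 (plus).
Ehhadh: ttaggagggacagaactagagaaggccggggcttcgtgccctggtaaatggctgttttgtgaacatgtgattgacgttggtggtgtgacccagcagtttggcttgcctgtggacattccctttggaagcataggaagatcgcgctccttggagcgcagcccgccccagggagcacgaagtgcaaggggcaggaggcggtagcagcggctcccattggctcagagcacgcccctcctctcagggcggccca
Acaa1b: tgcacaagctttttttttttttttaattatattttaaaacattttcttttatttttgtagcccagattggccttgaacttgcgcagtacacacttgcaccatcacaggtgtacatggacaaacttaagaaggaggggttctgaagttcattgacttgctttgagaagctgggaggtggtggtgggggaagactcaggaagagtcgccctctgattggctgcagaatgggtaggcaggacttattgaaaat
Acaa1a: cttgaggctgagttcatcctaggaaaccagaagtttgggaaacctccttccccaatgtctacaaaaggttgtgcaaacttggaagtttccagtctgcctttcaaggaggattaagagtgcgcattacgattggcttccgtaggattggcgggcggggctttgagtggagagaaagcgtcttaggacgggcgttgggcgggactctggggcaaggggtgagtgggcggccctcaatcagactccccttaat
None of the 3 held the half-site AGGTCA or the spaced repeat, so no letters are in capitals. In a global alignment the thiolase promoters matched at 124 of 250 bases (49.6%), near the 117 (46.8%) of Acaa1b with Ehhadh, a gene of another family. The Acaa1a stretch had 10 CG pairs and 53.6% G and C, the Acaa1b stretch 2 and 41.6%, and the Ehhadh stretch 12 and 60.4%. GENCODE places the start of Acaa1a further upstream, at base 119339676, so its stretch lies within that gene model.

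The ends of the coding sequences are printed for some enzymes of the 2 compartments. Many peroxisomal proteins carry their import signal in the last codons, marked in capitals before the stop codon, whereas most mitochondrial enzymes carry theirs at the front. The leading transcripts of 4 members with a peroxisomal role and, for comparison, the mitochondrial Acadm read as follows (GENCODE M21).
Ehhadh: ttggcaggaccccatagcAGCAAACTGtga
Decr2: gagtttgaatccttctctGCTAAGCTGtag
Crot: atacagctgatgaacaccGCTCATCTTtag
Eci2: agcttcgtctccagaaaaCCAAAGCTGtga
Acadm: cgtgagcacattgaaaagTATAAAAATtaa
The sister thiolases are imported by a signal at the other end of the protein, and the last 30 bases of their coding sequences were identical.
Acaa1a: gctgcggtctttgaatacCCTGGGAACtga
Acaa1b: gctgcggtctttgaatacCCTGGGAACtga
The last 9 coding bases of Ehhadh occurred at the end of 2 of 21677 protein-coding genes, and those of Decr2 at the end of 3. Those of the mitochondrial Acadm occurred at the end of 1 gene and those of the mitochondrial Acat1 (GAGAAGCTG) at the end of 4. Acat1 thus ended in the same AAGCTG as Decr2 and Eci2, with another codon before it (GAG, against GCT and CCA). Neither AAGCTG alone nor these counts separated the compartments. Whether the last 3 codons together separate them was not tested. Matching bases also misses other codons for the same amino acids.

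Other genes of peroxisomal oxidation had a median log2 ratio of -0.23, and 11 of 14 were lower in replicate 2, though none passed 1.5-fold. Catalase (Cat), which removes hydrogen peroxide made in peroxisomes, was at 225 and 193 TPM (-0.33), and Hacl1 of alpha-oxidation at 207 and 162 TPM (-0.53). Scp2, a thiolase and sterol carrier, was at 728 and 652 TPM (-0.23). Of 15 genes for building peroxisomes, 10 were lower in replicate 2, none passed 1.5-fold and the median was -0.09. Pex19 and Pex16 of the membrane were at 39.2 and 36.8 TPM and at 37.5 and 37.3 TPM. The import factors Pex14 and Pex5 were at 19.3 and 24.6 TPM and at 18.1 and 20.2 TPM.

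**Figure D4:**
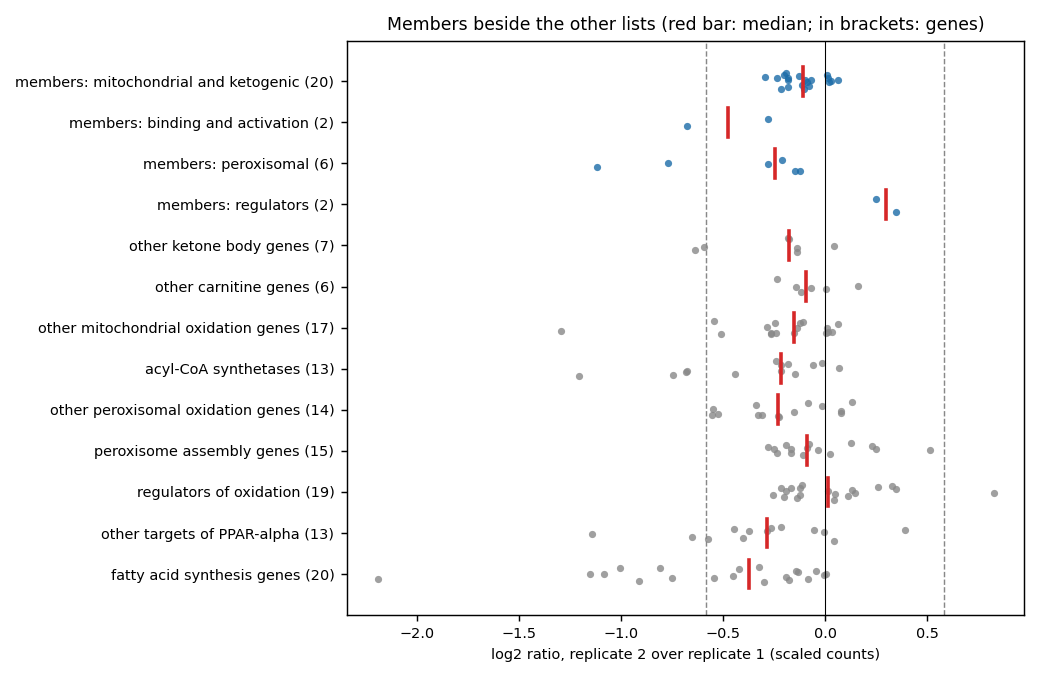
Log2 ratio of replicate 2 over replicate 1 for single genes (points) of the members (blue, by compartment or role) and of the other lists (grey), with the median of each (red bar) and 1.5-fold (dashed). The 20 mitochondrial and ketogenic members lie between -0.30 and 0.06, while the peroxisomal members reach -1.12.

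The ketogenic members were among the most abundant enzymes. Acat1, the mitochondrial thiolase that joins acetyl-CoA units at the first step, was at 307 and 306 TPM (log2 ratio -0.13). Bdh1, which makes beta-hydroxybutyrate at the last step, was at 218 and 193 TPM (-0.30, counting interval -0.31 to -0.28). Oxct1, the transferase by which other organs burn ketone bodies and which was named after its values were seen, was at 6.73 TPM in both libraries. The ketone body exporter Slc16a1 was at 47.6 and 46.6 TPM (-0.14), and Aacs, which turns ketone bodies into lipid in the cytosol, at 18.1 and 12.7 TPM (-0.64). Of 7 other ketone body genes 6 were lower in replicate 2 and 2 passed 1.5-fold, Aacs and the low Bdh2 (73 and 43 counts, named after its values were seen).

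The regulators were the least abundant members and the ones with the highest log2 ratios. Pdk4, the pyruvate dehydrogenase kinase that spares carbohydrate when fat is burned, was at 14.2 TPM in replicate 1 and 19.6 TPM in replicate 2. Its counts were 6928 and 7868, a log2 ratio of 0.35 (counting interval 0.30 to 0.40), within 1.5-fold. Ppargc1a, the coactivator PGC-1alpha, was at 2.75 and 3.62 TPM with 2282 and 2415 counts, a log2 ratio of 0.25 (0.16 to 0.33). The longest of those 10 classes of genes, which holds Ppargc1a, had a median of 0.12, and relative to them its ratio was 0.13. Ppargc1a stood above 20.5% of protein-coding genes with a mean of 1 TPM or more, and Pdk4 above 68.1%.

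Among its paralogs Pdk4 was second. Pdk1 was at 22.7 and 22.4 TPM (-0.12), Pdk2 at 7.88 and 10.5 TPM (0.22) and Pdk3 at 7.31 and 6.65 TPM (-0.24). Pdk1 over Pdk4 was 1.60 and 1.14. The related coactivators Ppargc1b and Pprc1 were at 0.25 and 0.47 TPM (132 and 209 counts, log2 ratio 0.83) and at 8.29 and 9.65 TPM (0.16). Of 19 other regulators of oxidation 9 were lower in replicate 2 and the median was 0.01, with Ppargc1b the 1 past 1.5-fold. The receptor gene Ppara was at 70.0 and 67.6 TPM (-0.14) and its fasting partner Creb3l3 at 76.1 and 70.3 TPM (-0.22). The liver regulator Hnf4a was at 59.8 and 66.9 TPM (0.04), and Angptl4, an inhibitor of lipoprotein lipase, at 48.1 and 46.1 TPM (-0.19).

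Other known targets of PPAR-alpha had a median log2 ratio of -0.29. Of the 13 measured, 11 were lower in replicate 2 and 2 passed 1.5-fold. The fatty acid omega-hydroxylases Cyp4a14 and Cyp4a10 were at 230 and 157 TPM (-0.65) and at 134 and 97.1 TPM (-0.57). Counts of Cyp4a10 were fractional, so its level is uncertain among the near-identical Cyp4a copies, while those of Cyp4a14 were whole. The lipid droplet protein Plin2 was at 182 and 146 TPM (-0.45), and Ucp2, a mitochondrial carrier, was level at 194 and 205 TPM (-0.05). The opposite pathway differed in the same direction. Of 20 fatty acid synthesis genes 19 were lower in replicate 2 and 7 passed 1.5-fold, with a median of -0.37. The most abundant were Tecr at 176 and 155 TPM (-0.30), Scd2 at 177 and 152 TPM (-0.32), Fads2 at 182 and 97.8 TPM (-1.01) and Elovl2 at 132 and 81.0 TPM (-0.81). The 2 lists were not tested against each other.

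Reads over single exon junctions, counted by the submitters on mm9, follow the members along the length of each gene. The list names its read counts R1 and R2, and 352 junctions inside the members carry its flag A = 1. All 352 have the length of an intron annotated in the same gene, against 1.52% of 3415 others, so they are called annotated here. Xist junctions had 8758 reads in R1 and 1 in R2. All 3 Fabp1 junctions were lower in R2, with 172556 and 84632 reads in all and log2 ratios from -0.80 to -0.72 after scaling by total junction reads. All 6 Ehhadh junctions were lower (-1.0 to -0.49), as were all 11 Acaa1b junctions with 100 reads or more (-1.30 to -0.80). For Acaa1a 9 of 11 were lower (-0.58 to 0.14). All 10 Pdk4 junctions were higher (0.07 to 0.60), and 9 of 11 Ppargc1a junctions. The junctions of the dehydrogenase Acadm were higher in 10 of 11 cases (median 0.17) and those of Acaa2 in 8 of 9 (median 0.13). By summed junction reads Acadm was at 0.15 and Acaa2 at 0.11, against 0.06 and 0.02 on the count scale. No median over the annotated junctions of all genes was taken, so an offset of the junction scale is not measured. Junctions of 1 gene come from the same 2 libraries and are not replicates.

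**Figure D5:**
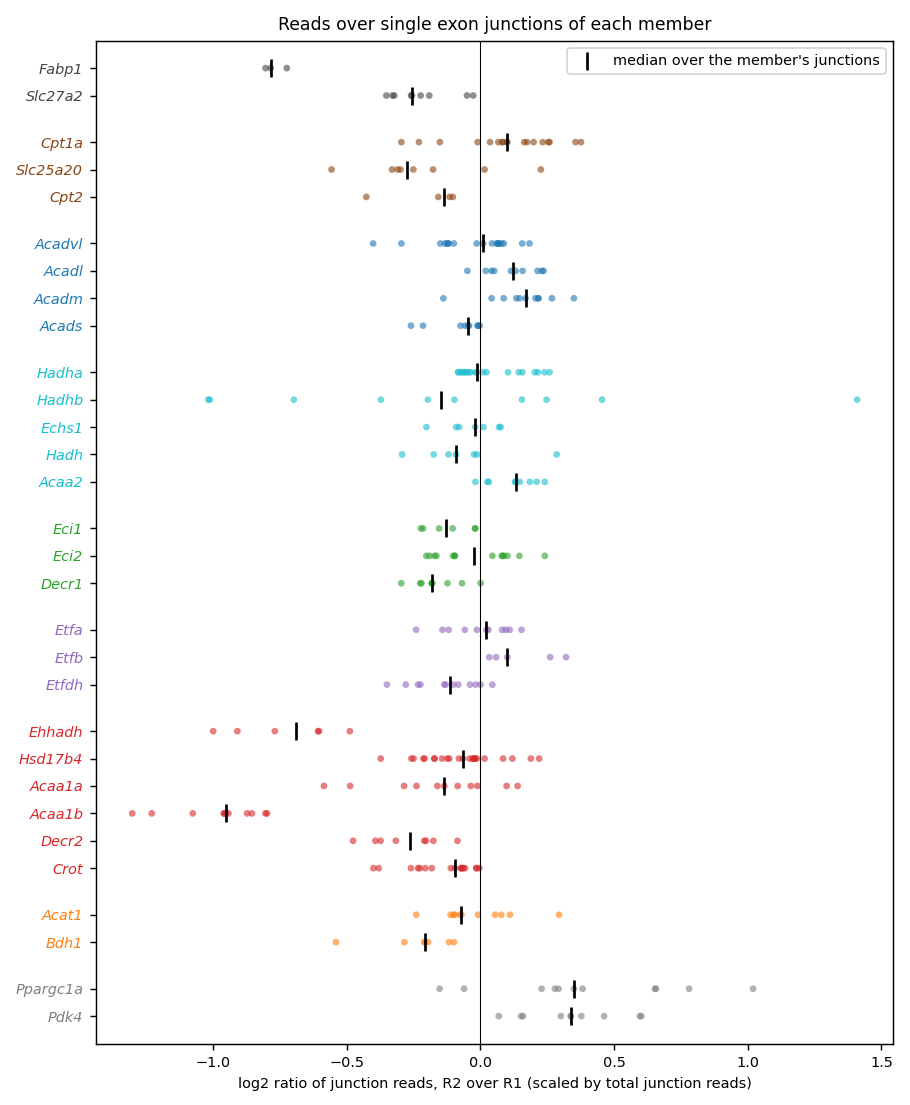
Log2 ratio of R2 over R1 for each annotated junction with 100 reads or more in all (points, 315 junctions), scaled by total junction reads, with the median of each member (black bar). Every Fabp1, Ehhadh and Acaa1b point lies left of 0 and every Pdk4 point right of it, and Hadhb shows the widest scatter.

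The leading transcript was the same in both libraries for all 30 members. Of the 25 with more than 1 transcript, all 25 kept it, against 95.2% of genes at 10 TPM or more. In 16 of the 25 it took 90% or more of the gene's TPM in both libraries, against 25.5% of such genes. It fell under 50% in at least 1 library for 2 members, Eci2 and Hadhb. The leading transcript was protein coding in every member. Bdh1-201 took 83.9% and 84.5%, Cpt2-201 79.9% and 75.8%, and Ppargc1a-203 82.4% and 78.0%. Retained-intron forms took 13.1% and 14.2% for Acadvl and 11.5% and 14.8% for Acaa1a.

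The older mm9 gene table gives 2 RPKM values (reads per length and library size) for each gene, which no label ties to a replicate number. After centring on all genes, 0 of 30 members differed by over 4-fold between mean RPKM and mean TPM, against 4% of genes with both values at 1 or more. Fabp1 (-1.60 on the log2 scale) and Hadhb (-1.55) were the 2 members past 2-fold, both lower on mm9. The share of all genes past 2-fold was not taken. The order of the members agreed closely, with a Spearman rho of 0.95 over 30 genes, given as a description because both sets come from the same libraries. The first and second RPKM values were 251 and 373 for Fabp1, 30.2 and 49.3 for Ehhadh and 14.1 and 27.9 for Acaa1b. They were 7.97 and 3.24 for Pdk4, 1.88 and 0.71 for Ppargc1a, 92.5 and 46.2 for Acadm and 50.3 and 21.2 for Hadha. Of the 30 members, 14 differed by over 1.5-fold between the 2 RPKM values, 12 of them higher in the first, against 48.4% of genes past that fold either way. The 2 values were not centred, and over those genes the median log2 of first over second was 0.50. The direction of the 12 was therefore not set against a matching share.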

How the data were processed

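Poly(A)+ RNA of 2 liver libraries of 1 group was analysed from the tables as deposited. The authors deposited expected counts, TPM and FPKM per gene and the percent of each gene's TPM per transcript on mm10, per the file headers. They also deposited RPKM per gene and read counts per exon junction on mm9. The names of the aligner and quantifier were not given in the sources used here. Of 43346 mouse gene identifiers, 42462 were named from GENCODE M21. Expected counts were rounded and scaled by TMM (edgeR 4.0.16), with DESeq2 1.42.0 size factors as an alternative, and log2 ratios had 0.5 added and a mean count of at least 10. That ratio was tested on simulated data. Intervals are 95% and cover counting error only. Depth was 159127988 and 136904873 counts. With 2 libraries no test was made, and no label says that the replicates are separate animals. The 30 members and all gene lists were chosen with earlier results of these data known. Named were all members, their paralogs, the 4 most abundant genes of each other list and up to 3 of the most abundant markers per tissue. The markers Sis, Muc2, Cdx2, Kap, Slc12a1, Ucp1 and Nr5a1 fall outside that rule and were named after their values were seen. Other list genes named otherwise are marked so. Some genes of these lists are counted but not reported here by name. The transcript sequences (GENCODE M21) and promoter windows (RefSeq, GRCm38.p6) were read as given. Exon values on mm9 were not used here.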

Additional observations from a re-analysis of the deposited data

How the results depend on the processing

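No paired analysis was possible because the study has 1 group, so its replicate numbers pair nothing. Relative to mouse nuclear genes without adult globins, the median level of the members was 148 TPM and their share 1.08%. The median was 94.9 in FPKM, and the share was 0.381% without Fabp1, an alternative chosen after seeing the data. Leaving out 1 library gave medians from 97.0 to 105.5 TPM and shares from 0.682% to 0.842%. The count past the fold mark was 1 at 2-fold and 2 by TPM, where Fabp1 dropped out. The median log2 ratio was -0.011 by TPM, where all genes shifted too, and -0.071 over annotated junction reads, also chosen after seeing the data. Members lower in replicate 2 numbered 17 by TPM and 22 to 24 by junction reads, DESeq2 size factors, 5 added counts or genes of similar length. By TPM 24.97% of genes with a mean count of at least 1000 were lower. Between mm9 and mm10, 2 members passed 2-fold, a mark at which no share of all genes was taken. Other alternatives left the counts within 1.5 times.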

Other observations

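The mm9 gene table and the mm9 junction list run in opposite orders for sex-linked RNA. Xist had a first RPKM of 0.036 and a second of 27.05, whereas its junctions had 8758 reads in R1 and 1 in R2. The first and second RPKM of Ddx3y were 2.42 and 0.00033, and its junctions had 0 and 3930 reads. No label ties either pair to a replicate number, but on mm10 Xist had 157187 counts in replicate 1 and 41 in replicate 2. By these sex-linked genes R1 and the second RPKM go with replicate 1, and R2 and the first RPKM with replicate 2. The second RPKM was the higher for Fabp1, Ehhadh and Acaa1b, as for Xist. The widest folds between the 2 RPKM values among members were the other way, at 2.66 for Ppargc1a, 2.46 for Pdk4 and 2.37 for Hadha. Over all genes the median log2 of first over second RPKM was 0.50, so most genes were higher in the first value. It was the higher for 19 of 30 members, and the share of all genes was not taken.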
